A study of Mus musculus with 8 samples.

Results

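The genes described here regulate apoptosis, necroptosis and pyroptosis. They were 32 genes chosen by name from 23420 rows of a mouse RNA-seq count table, and all 32 were present under the listed symbol. The choice covers the BCL-2 family, caspases, death receptors with their adaptors, and the effectors of lytic death, and no measured value entered the rule. Of the 32 genes, 8 act mainly for survival (Bcl2, Bcl2l1, Bcl2a1a, Bcl2a1b, Bcl2a1d, Mcl1, Cflar and Xiap) and 24 act in the death pathways. After the filter on low counts 31 were among the 12442 genes tested. Bok, a pore-forming BCL-2 relative, did not pass, and it lay between 0.0619 and 0.678 CPM (read counts scaled to library size) in the 8 libraries.

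The cells were mouse dendritic cells, which take up antigen and present it to T cells. They were labelled Gata1 knock-out, called KO here, or wild type (WT). They were kept at steady state or stimulated with LPS, the lipopolysaccharide of bacterial walls, which activates these cells through TLR4. The 4 groups were WT at steady state, KO at steady state, WT with LPS and KO with LPS, with 2 libraries each, described by the submitters as biological replicates. The labels give no strain, age or sex of the mice, no method of deletion, no origin of the cells and no LPS dose or time. Nothing in the labels ties a library to an animal or culture, so p-values measure the spread between these libraries, which may be technical.

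Apoptosis through mitochondria starts when BH3-only proteins neutralise the guard proteins of the BCL-2 family or activate BAX and BAK directly. Those pore formers release cytochrome c, which assembles APAF1 and caspase-9 into the apoptosome. Death receptors such as FAS recruit FADD and caspase-8 instead. When caspase-8 is held back, RIPK1 and RIPK3 can phosphorylate MLKL, which ruptures the plasma membrane in necroptosis. In pyroptosis inflammatory caspases cut gasdermin D into a pore. Dendritic cells are short-lived after activation, and the balance of these proteins is known to set how long they persist.

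The deposited values were read counts, with 8005151 to 15495249 reads per library. Gata1 had 0 reads in all 4 KO libraries, but the WT libraries held only 0 to 10 reads each, so the gene is a weak check of the labels. Among dendritic cell markers, Cd74, H2-Aa, H2-Ab1 and Sirpa were at or above 772 CPM in every library. Flt3 was under 1 CPM in 3 of the 4 LPS libraries, and Cd209a was at 0 in 3 and at 0.0619 CPM in the other. All 14 dendritic cell markers listed summed to 18094 to 30569 CPM at steady state, 18444 and 12707 CPM in WT with LPS and 6750 and 11355 CPM in KO with LPS. Zbtb46, Itgax, Irf8, Ccr7 and Batf3 were each lower in both KO LPS libraries than in both WT LPS libraries, Zbtb46 at 11.97 and 4.90 CPM against 44.3 and 50.5 CPM. Sirpa and Clec9a went the other way, Sirpa at 1746 and 1374 CPM in KO against 772 and 810 CPM in WT. For other markers of the list, such as Cd74 and H2-Ab1, the KO and WT libraries with LPS overlapped. Genes of macrophages were high as well: the 12 markers in the table, of 13 listed, summed to 20861 to 28724 CPM at steady state, 3919 to 5786 CPM in WT with LPS and 16366 to 21860 CPM in KO with LPS. Lyz2 made up much of that sum, at 14069 to 17333 CPM at steady state, 2256 and 2057 CPM in WT with LPS and 16039 and 10001 CPM in KO with LPS. Emr1 went the other way in WT, from 509 and 416 CPM to 1509 and 843 CPM with LPS. T and NK cell genes summed to at most 8.84 CPM and B cell genes to 0.661 to 33.6 CPM. Neutrophil genes summed to 269 to 999 CPM, and mast cell and basophil genes to 17.2 to 272 CPM. WT steady-state replicate 2 had the highest B cell and neutrophil sums, and it held the 10 Gata1 reads. Whether these are related was not tested. In these bulk libraries fewer cells of a type and less RNA per cell cannot be told apart.

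Read counts of the 3 Bcl2a1 genes, which encode copies of the guard protein A1, need care because the genes are near-identical. Over 516 coding bases they were 97.9% to 98.8% identical in pairs, and 69.0% to 79.5% of the 50-base stretches of each gene's transcripts also occurred in another gene. The first 90 coding bases of the GENCODE M21 transcripts (build GRCm38.p6) are shown to make this visible, 5′ to 3′, with capitals at the positions not shared by all 3 copies.
Bcl2a1a: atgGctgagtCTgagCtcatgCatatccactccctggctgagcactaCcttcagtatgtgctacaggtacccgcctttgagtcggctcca
Bcl2a1b: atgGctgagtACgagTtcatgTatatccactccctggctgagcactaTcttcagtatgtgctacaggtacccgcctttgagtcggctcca
Bcl2a1d: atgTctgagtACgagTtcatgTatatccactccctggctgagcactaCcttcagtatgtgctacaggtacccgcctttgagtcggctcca
Only 6 of the 90 positions differ, and 12 of all 516. No source used here says how reads that match several genes were counted. The 3 genes lie on mouse chromosome 9 (Bcl2a1d at 88723288-88731850, Bcl2a1a at 88956920-88962416 and Bcl2a1b at 89199273-89207838), and the division of reads between them is uncertain.

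With LPS, Mlkl and Cflar passed the test in WT cells, both higher, and in KO cells Mlkl passed as higher and Pmaip1 as lower. Mlkl encodes the membrane-rupturing effector of necroptosis. Cflar encodes c-FLIP, a catalytically inactive relative of caspase-8 that blocks its activation. Pmaip1 encodes NOXA, a BH3-only protein that binds MCL1 and promotes its degradation. No member passed the test between KO and WT cells, either at steady state or with LPS, and none had an LPS response that passed the test for a difference between genotypes. Calls here mean a Benjamini-Hochberg adjusted p under 0.05 over all 12442 genes in edgeR's quasi-likelihood test.

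**Figure D1:**
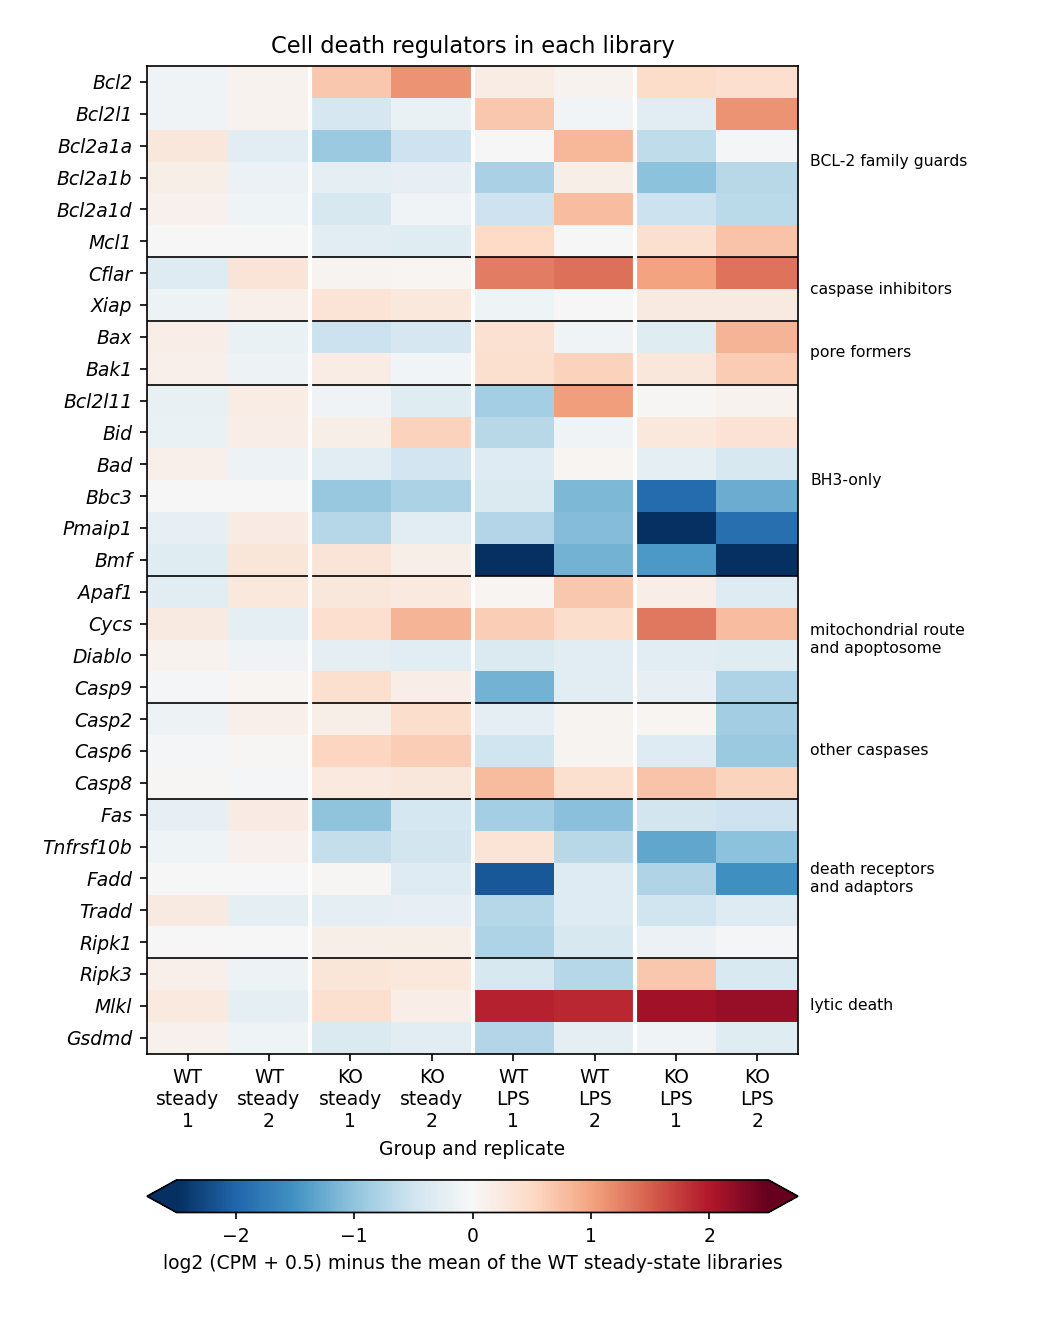
Each row is a member that was tested and each column a library; colour gives log2 (CPM + 0.5) minus the mean of the WT steady-state libraries, and horizontal lines separate the roles. Mlkl and Cflar are higher in all 4 LPS libraries than in each steady-state library, and Pmaip1 and Bmf are lower. Bbc3 is below the WT steady-state mean in all 4 LPS libraries and in both KO steady-state libraries.

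Mlkl (chromosome 8, 111311255-111338479) measured 11.8 and 8.33 CPM in the WT steady-state libraries and 13.2 and 11.2 CPM in the KO ones. With LPS it measured 38.7 and 37.9 CPM in WT and 44.4 and 46.4 CPM in KO. Every LPS library was thus above every steady-state library in both genotypes, and the replicates of each LPS group lay close together. The log2 fold change was 1.93 ± 0.27 (SE) in WT, a 3.81-fold rise (adjusted p = 0.0101, edgeR), and 1.90 ± 0.26 in KO, a 3.73-fold rise (adjusted p = 0.00862, edgeR). The LPS response in KO minus that in WT was -0.03, with a 95% interval of -0.88 to 0.81. With LPS alone, both KO libraries were above both WT libraries, but the difference of 0.24 ± 0.25 did not pass (adjusted p = 0.700, edgeR). The WT call was lost when WT steady-state replicate 1 or 2 was left out (adjusted p = 0.0626 and 0.0850, edgeR), and with only the groups compared in the fit (0.0659). That in KO was lost on leaving out KO steady-state replicate 1 or 2 (0.0806 and 0.0953) or KO LPS replicate 2 (0.0506), while the log2 fold change stayed between 1.71 and 2.21 in WT and between 1.81 and 2.02 in KO.

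The other members of the lytic pathways did not pass. Ripk3, the kinase that activates MLKL, ranged from 14.3 to 19.5 CPM at steady state and from 9.28 to 25.1 CPM with LPS. Gsdmd, the pyroptotic pore protein, measured 187 and 163 CPM in WT and 135 and 144 CPM in KO at steady state, and 105 and 150 CPM in WT and 163 and 141 CPM in KO with LPS. This held for both genes in all 5 comparisons. Per kilobase of exon, the ratio of Mlkl to Ripk3 was 0.581 to 0.690 in the 4 steady-state libraries, 3.31 to 4.06 in WT with LPS and 1.76 to 3.92 in KO with LPS. This pair, like the other pairs below, was chosen with the values known, and its ratio is given without a test.

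Cflar (chromosome 1, 58711311-58758884) measured 149 and 232 CPM in the WT steady-state libraries and 194 and 192 CPM in the KO ones. With LPS it measured 455 and 487 CPM in WT and 373 and 480 CPM in KO. No LPS library overlapped any steady-state library. Cflar rose by 1.31 ± 0.30 on the log2 scale in WT (adjusted p = 0.0491, edgeR). In KO the log2 fold change was 1.145 ± 0.30 and just missed the threshold (adjusted p = 0.0515, edgeR). The difference between these responses was -0.16, with a 95% interval of -1.149 to 0.83, and KO minus WT with LPS was -0.14 ± 0.30, so passing in 1 genotype and not in the other does not show that they differed. The WT call sits close to the threshold. It was lost with RLE factors (adjusted p = 0.0513, edgeR), with only the groups compared (0.169) and without any 1 of 7 libraries: WT steady-state replicate 1 (adjusted p = 0.280, edgeR) or 2 (0.115), KO steady-state replicate 1 (0.121) or 2 (0.121), WT LPS replicate 1 (0.0674), KO LPS replicate 1 (0.0617) or 2 (0.0581). It was kept without WT LPS replicate 2 (0.0340). The KO value passed without WT LPS replicate 1 (0.0287) or 2 (0.0282), with fewer libraries in the shared estimate of spread. Of the 50-base stretches of Cflar transcripts, 7.36% also occur in other genes.

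Xiap, the other caspase inhibitor, binds processed caspases directly and stayed between 93.2 and 130 CPM in all libraries. Casp8, the initiator caspase that c-FLIP restrains, measured 78.1 and 75.6 CPM in WT and 90.6 and 93.8 CPM in KO at steady state. With LPS it measured 133 and 102 CPM in WT and 127 and 113 CPM in KO, again with no overlap. Its log2 fold changes of 0.61 ± 0.23 in WT and 0.38 ± 0.23 in KO did not pass (adjusted p = 0.143 and 0.278, edgeR), and the WT value passed only without WT LPS replicate 2. Per kilobase, the ratio of Cflar to Casp8 was 0.435 to 0.701 in WT and 0.466 to 0.489 in KO at steady state, and 0.779 to 1.09 in WT and 0.672 to 0.974 in KO with LPS. The highest steady-state library therefore overlapped the LPS range.

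Pmaip1 (chromosome 18, 66458604-66465558) measured 223 and 295 CPM in WT and 156 and 210 CPM in KO at steady state. With LPS it measured 155 and 121 CPM in WT and 43.0 and 69.0 CPM in KO. Both KO libraries were below both WT libraries at each treatment, and the LPS libraries of each genotype were below its steady-state libraries. In KO cells Pmaip1 fell by 1.71 ± 0.34 on the log2 scale, to 0.307 of its steady-state level (adjusted p = 0.0232, edgeR). In WT cells the log2 fold change was -0.91 ± 0.33 (adjusted p = 0.137, edgeR). KO minus WT was -0.50 ± 0.33 at steady state (adjusted p = 1) and -1.30 ± 0.33 with LPS (adjusted p = 0.112, edgeR). The interaction was -0.80, with a 95% interval of -1.88 to 0.28 (adjusted p = 0.894, edgeR), so a larger fall in KO was not shown. This call was lost without WT steady-state replicate 1 or 2 (adjusted p = 0.0532 and 0.0518, edgeR), KO steady-state replicate 1 or 2 (0.0905 and 0.162) or KO LPS replicate 1 or 2 (0.0724 and 0.0598). In those fits the log2 fold change stayed between -2.11 and -1.41. DESeq2 called the difference between KO and WT with LPS. The macrophage genes also separated these groups, with 3919 and 5786 CPM in WT and 16366 and 21860 CPM in KO, and so did the dendritic cell genes, with 18444 and 12707 CPM in WT and 6750 and 11355 CPM in KO; their part in the Pmaip1 difference was not tested.

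**Figure D2:**
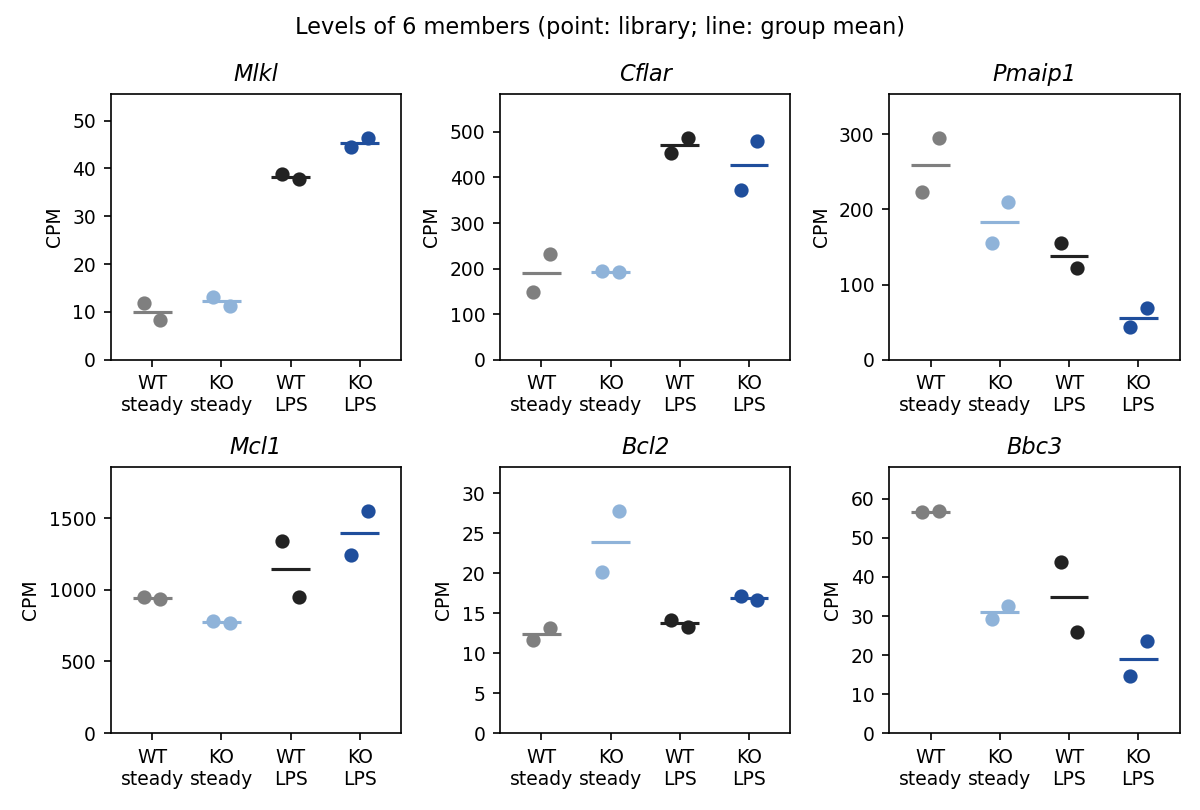
CPM (linear axis from 0) of 6 members, with a point for each library and a line at the mean of each group of 2. Mlkl and Cflar separate LPS from steady state, and Pmaip1 reaches its lowest values of 43.0 and 69.0 CPM in the KO libraries with LPS.

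Mcl1 (chromosome 3, 95656944-95663179), the guard that NOXA antagonises, and Bcl2a1b were the highest members per kilobase of exon. The mean of Mcl1 was 277 CPM per kilobase in WT and 227 in KO at steady state and 335 in WT and 408 in KO with LPS. That of Bcl2a1b was 310.0 and 266 at steady state and 259 and 171 with LPS, so Bcl2a1b led at steady state, and Mcl1 with LPS other than in WT LPS replicate 2. In CPM, Mcl1 measured 952 and 938 CPM in WT and 783 and 768 CPM in KO at steady state, and 1342 and 949 CPM in WT and 1241 and 1547 CPM in KO with LPS. The KO libraries did not overlap between treatments; the WT libraries did. Log2 fold changes with LPS were 0.28 ± 0.31 in WT and 0.85 ± 0.31 in KO, and neither passed (adjusted p = 0.589 and 0.112, edgeR). The ratio of Mcl1 to Pmaip1 per kilobase was 2.54 to 3.42 in WT and 2.93 to 4.01 in KO at steady state. It was 6.25 to 6.92 in WT with LPS and 17.9 to 23.0 in KO with LPS, so the KO libraries had the highest ratios of any group.

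**Figure D3:**
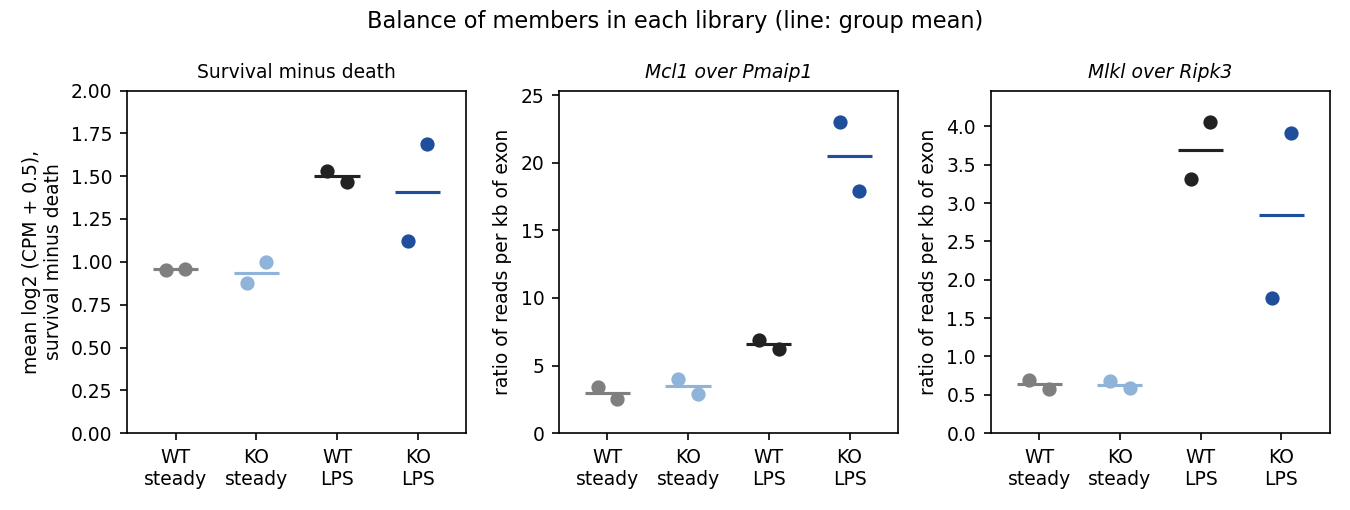
Per library, the mean log2 (CPM + 0.5) of 8 survival members minus that of 23 death members (left), and the ratios per kilobase of exon of Mcl1 to Pmaip1 (middle) and Mlkl to Ripk3 (right); lines are means of 2 libraries. All 3 quantities are higher in each LPS library than in each steady-state library.

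Bcl2, the founding guard, did not pass in any comparison. It measured 11.7 and 13.2 CPM in WT and 20.1 and 27.7 CPM in KO at steady state, and 14.1 and 13.3 CPM in WT and 17.2 and 16.7 CPM in KO with LPS. KO libraries were above WT libraries at both treatments. The log2 difference of 0.94 ± 0.27 at steady state had an unadjusted p of 0.00984 and an adjusted p of 1 (edgeR), and that with LPS was 0.30 ± 0.27 (adjusted p = 0.650). Bcl2l1, which encodes BCL-xL, measured 82.7 and 93.2 CPM in WT and 65.9 and 77.7 CPM in KO at steady state. With LPS its replicates split: 140 and 84.2 CPM in WT, and 71.7 and 191 CPM in KO. Its log2 fold change in KO was 0.87 ± 0.46 and went to -0.02 without KO LPS replicate 2. Bcl2a1b ranged from 124 to 281 CPM, Bcl2a1a from 41.1 to 140 CPM and Bcl2a1d from 3.52 to 10.5 CPM.

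Of the 6 BH3-only genes, 5 in WT and 4 in KO had a log2 fold change below 0 with LPS, and only Pmaip1, in KO, passed. Bmf, whose product senses loss of attachment and cytoskeletal change, measured 137 and 208 CPM in WT and 212 and 188 CPM in KO at steady state. With LPS it measured 16.001 and 74.1 CPM in WT and 62.0 and 7.04 CPM in KO. All 4 LPS libraries were under all 4 steady-state libraries, but the replicates within each LPS group differed more than those of any other member. The log2 fold changes of -1.93 ± 0.97 in WT and -2.52 ± 0.998 in KO therefore did not pass (adjusted p = 0.248 and 0.130, edgeR). Bbc3, which encodes PUMA, measured 56.6 and 56.8 CPM in WT and 29.3 and 32.7 CPM in KO at steady state, and 43.8 and 25.9 CPM in WT and 14.6 and 23.6 CPM in KO with LPS. KO libraries were lower than WT libraries at both treatments, with log2 differences of -0.87 ± 0.33 and -0.87 ± 0.34 (unadjusted p = 0.0337 and 0.0364, adjusted p = 1 and 0.255, edgeR). LPS against steady state gave -0.71 ± 0.33 in WT and -0.70 ± 0.34 in KO, and neither passed. Bcl2l11, which encodes BIM, ranged from 73.9 to 278 CPM, with both extremes in the WT LPS group. Bid, the link from caspase-8 to mitochondria, ranged from 11.6 to 28.6 CPM, and Bad from 19.7 to 30.04 CPM.

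Of the pore formers, Bax measured 170 and 136 CPM in WT and 105 and 113 CPM in KO at steady state, and 198 and 142 CPM in WT and 123 and 272 CPM in KO with LPS. The WT libraries overlapped between treatments and the KO ones did not. Bak1 ranged from 111 to 137 CPM at steady state and from 148 to 190 CPM with LPS, and its log2 fold changes of 0.49 ± 0.25 in WT and 0.42 ± 0.25 in KO did not pass. In the apoptosome route, Apaf1, the scaffold, measured 75.7 and 109 CPM in WT and 112 and 108 CPM in KO at steady state, and 94.3 and 146 CPM in WT and 102 and 73.0 CPM in KO with LPS. Casp9, its caspase, ranged from 62.9 to 86.3 CPM at steady state and from 28.6 to 56.4 CPM with LPS. Its log2 fold changes were -0.67 ± 0.34 in WT and -0.75 ± 0.34 in KO (adjusted p = 0.255 and 0.174, edgeR). Diablo, an antagonist of XIAP, ranged from 30.3 to 41.0 CPM. Cycs, the cytochrome c gene, ranged from 0.372 to 2.03 CPM; 26.1% of its 50-base stretches occur in 76 other genes, so its count is uncertain. Reads cannot be assigned to a strand with this kit, and exons of Bak1, Bad, Bid, Bax, Diablo and Bcl2a1b overlap other genes.

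Casp6, an effector caspase, ranged from 18.9 to 29.8 CPM at steady state. With LPS it measured 13.5 and 20.4 CPM in WT and 15.2 and 9.95 CPM in KO. In KO the log2 fold change was -1.20 ± 0.32 and lay just outside the threshold (adjusted p = 0.0537, edgeR); in WT it was -0.18 ± 0.32. Casp2 ranged from 17.8 to 44.9 CPM. Among receptors and adaptors, Ripk1, the kinase that also relays survival signals from the TNF receptor, measured 95.8 and 94.9 CPM in WT and 105 and 106 CPM in KO at steady state, and 55.3 and 72.6 CPM in WT and 86.0 and 91.9 CPM in KO with LPS. Its log2 fold change in WT was -0.58 ± 0.22 (adjusted p = 0.154, edgeR). Fadd, the adaptor that brings caspase-8 to the receptors, ranged from 17.0 to 21.7 CPM at steady state and from 4.50 to 16.8 CPM with LPS, with log2 fold changes of -0.97 ± 0.57 in WT and -0.99 ± 0.58 in KO that did not pass. Tradd ranged from 19.6 to 38.2 CPM. Tnfrsf10b, the mouse TRAIL receptor, ranged from 2.71 to 9.52 CPM, and KO minus WT with LPS was -1.18 ± 0.47 (adjusted p = 0.259, edgeR).

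Fas showed the only interaction with an unadjusted p under 0.05. It measured 67.0 and 88.4 CPM in WT and 38.1 and 56.6 CPM in KO at steady state, and 42.7 and 37.1 CPM in WT and 56.0 and 53.4 CPM in KO with LPS. KO libraries were thus lower than WT libraries at steady state and higher with LPS. The interaction was 1.17 ± 0.38 on the log2 scale (unadjusted p = 0.0174, adjusted p = 0.649, edgeR). LPS against steady state gave -0.96 ± 0.27 in WT (adjusted p = 0.0802), which DESeq2 called, and 0.21 ± 0.27 in KO.

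**Figure D4:**
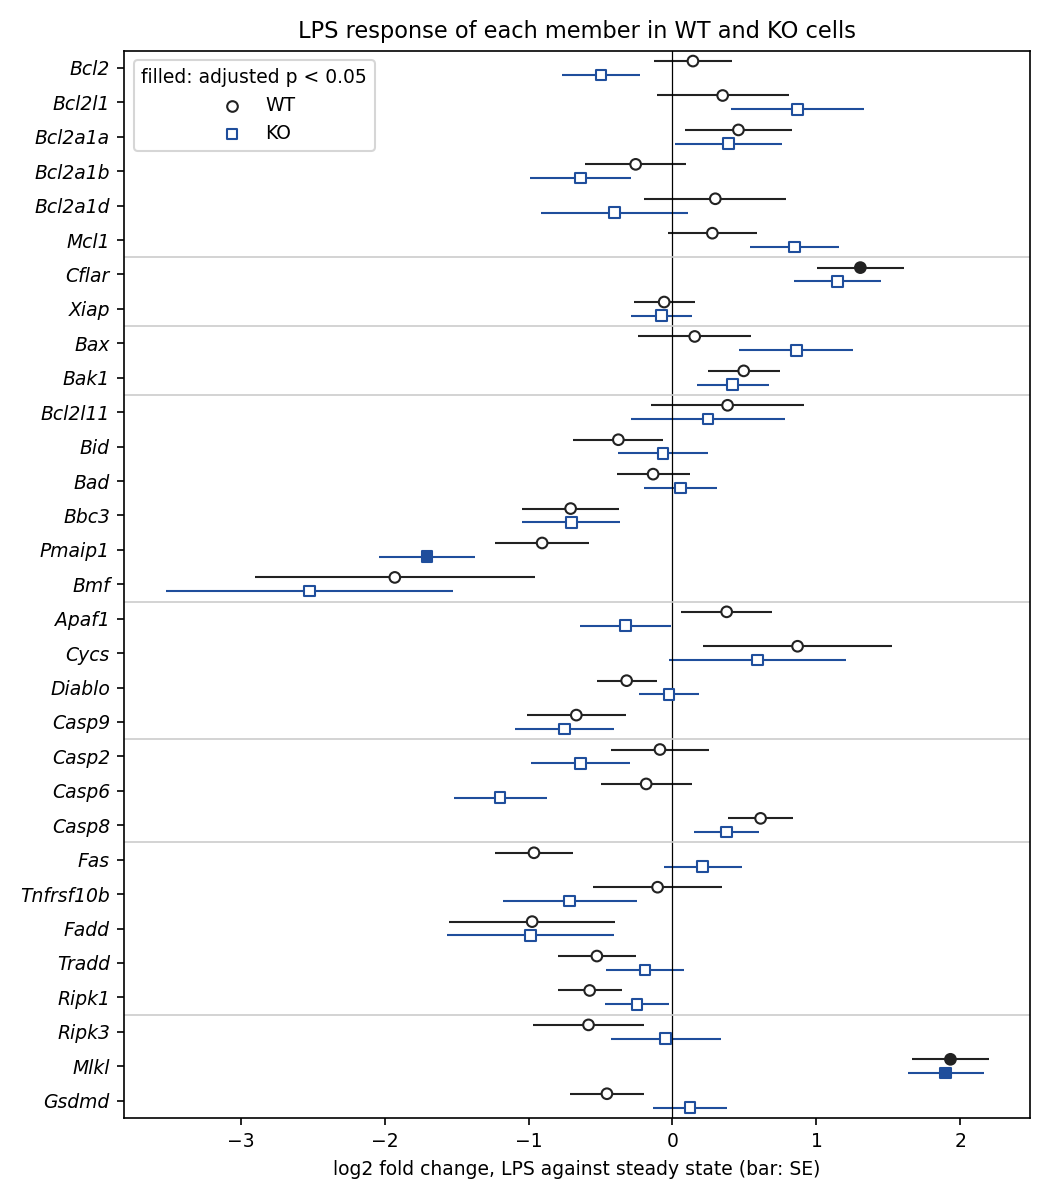
Log2 fold change of each tested member with LPS against steady state in WT (circles) and KO (squares), with bars of 1 SE; filled symbols passed the adjusted threshold. Mlkl is filled in both genotypes, Cflar in WT and Pmaip1 in KO, and the widest bars belong to Bmf.

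Counted over the 31 tested members, 2 passed with LPS in WT, both higher, where 6.49% of all genes passed and 3% were higher. In KO 2 passed, 1 higher and 1 lower, where 11.8% of all genes passed, 5.3% higher and 6.46% lower. The members' shares, 6.45% in each genotype, are thus near or under the background. These counts depend on single libraries, as does the number of all genes that passed. In WT the count was 0 without either WT steady-state library, 1 without either KO steady-state library, WT LPS replicate 1 or either KO LPS library, and 6 without WT LPS replicate 2. DESeq2 called 3 in WT, with Fas lower beside Mlkl and Cflar, where it called 1995 of all genes. In KO the edgeR count was 1 without either WT steady-state library or KO LPS replicate 1, 0 without either KO steady-state library or KO LPS replicate 2, and 5 without either WT LPS library. DESeq2 called 6 in KO, Cflar and Mcl1 higher and Casp6 and Bmf lower beside Mlkl and Pmaip1. It called 2846 of all genes there.

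Between genotypes, 0 members passed in edgeR at steady state, where 0% of all genes passed, 3 had an unadjusted p under 0.05 (Bcl2, Fas and Bbc3; 2.63% of all genes), and DESeq2 called 0. With LPS 0 members passed in edgeR against 0.772% of all genes. There 3 had an unadjusted p under 0.05 (Pmaip1, Bbc3 and Tnfrsf10b), where 16.9% of all genes did. DESeq2 called 1 member, Pmaip1, and 1062 of all genes. For the interaction 0 members passed in edgeR, where 0% of all genes passed, 1 had an unadjusted p under 0.05 (Fas; 6.41% of all genes), and DESeq2 called 0. At steady state the libraries of KO and WT did not overlap for 21 of 31 members, where 45.5% of all genes did not overlap. With LPS this held for 13 of 31, where 36.1% of all genes did not overlap. LPS and steady-state libraries did not overlap for 17 of 31 members in WT, where 56.6% of all genes did not. In KO this was 22 of 31 members, where 72.6% of all genes did not overlap.

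Survival and death members were also set against each other as whole groups, as a description without a test. With LPS in WT, 6 of 8 survival members had a log2 fold change above 0 (median 0.29), and 7 of 23 death members did (median -0.32); over all genes 50.1% were above 0 and the median was 0.00. In KO, 4 of 8 survival members (median 0.16) and 9 of 23 death members (median -0.07) were above 0, where 48.8% of all genes were and the median was -0.02. The mean log2 (CPM + 0.5) of survival members exceeded that of death members by 0.954 and 0.959 in WT and 0.875 and 0.997 in KO at steady state. The gap was 1.53 and 1.47 in WT and 1.122 and 1.69 in KO with LPS. Every LPS library was above every steady-state library, while the KO LPS replicates were far apart (SD 0.401, n = 2, against 0.0422 in WT with LPS). At each treatment 1 KO library lay under and the other over both WT libraries. Without Ripk1 and Tradd, which also carry survival signals, the gap was 0.911 to 1.03 at steady state and 1.146 to 1.75 with LPS.

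The LPS libraries varied more than the steady-state ones. The replicates differed over 2-fold for 0 of 31 members in each steady-state group, where 5.16% (WT) and 3.52% (KO) of all genes did. With LPS they did so for 5 of 31 members in WT and 4 of 31 in KO, where 28.5% and 16.7% of all genes did. Bmf differed most in both LPS groups, by 2.18 on the log2 scale in WT (lower in replicate 1) and by 3.05 in KO (lower in replicate 2). Bax and Bcl2l1 were higher in WT replicate 1 and in KO replicate 2. Heat shock genes also varied here: their 6 markers summed to 1429 CPM in WT LPS replicate 1 and 348 CPM in KO LPS replicate 2, against 356 and 182 CPM in the other LPS libraries. Their part in the members' spread was not tested.

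**Figure D5:**
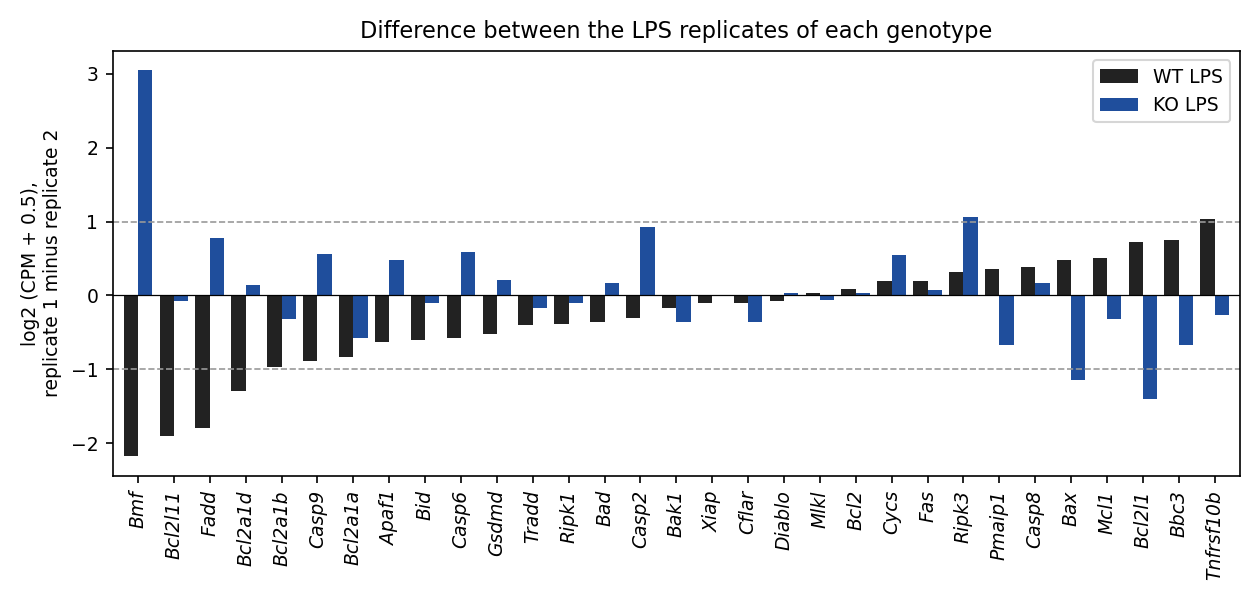
Bars give, for each tested member, log2 (CPM + 0.5) of replicate 1 minus replicate 2 in WT (black) and KO (blue) with LPS, ordered by the WT value; dashed lines mark a 2-fold difference. Bmf, Bax and Bcl2l1 differ in opposite directions in the genotypes, and the bars of Mlkl are near 0 in both.

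Other genes of these pathways gave a wider view. Of 67 further cell death genes, 57 were tested. The list was chosen with earlier results of these data known, so its shares below do not test it against all genes. With LPS 11 passed in WT (19.3%, where 6.49% of all genes passed), 10 of them higher, and 14 passed in KO (24.6%, where 11.8% of all genes passed), 11 higher. Il1b, the inflammasome product, rose by 5.08 ± 0.48 in WT and 4.30 ± 0.46 in KO on the log2 scale. Zbp1, a nucleic acid sensor that engages RIPK3, rose by 2.99 ± 0.33 and 2.97 ± 0.33. Casp4, the mouse caspase-11 that senses intracellular LPS and cuts gasdermin D, rose by 2.17 ± 0.30 and 1.88 ± 0.30. All 3 passed in both genotypes.

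Further genes rose in both genotypes. These were Tnfrsf1b, TNF receptor 2 (1.86 ± 0.36 in WT and 2.18 ± 0.37 in KO), and Naip2, an inflammasome sensor (1.44 ± 0.27 and 1.97 ± 0.27), and Bnip3, a BH3-like mitochondrial protein (1.88 ± 0.44 and 2.78 ± 0.44). Sept4, whose ARTS product antagonises XIAP, fell by 2.92 ± 0.46 in WT and by 4.33 ± 0.54 in KO. In WT the kinase Ripk2 (2.36 ± 0.34) and the cytokine Tnf (3.20 ± 0.59) also passed, both higher. So did the ubiquitin ligase subunit Rnf31 (0.96 ± 0.22) and the deubiquitinase Tnfaip3 (1.61 ± 0.37). In KO, Casp1 (1.55 ± 0.26), Naip1 (2.46 ± 0.53) and Ninj1, which drives the final membrane rupture of lytic death (3.02 ± 0.67), also passed, all higher. In the other genotype too, each of the genes named as higher in 1 genotype was higher in both LPS libraries than in both steady-state libraries. For the interaction 0 of the 57 genes passed, where 0% of all genes did, so these rises were not shown to differ between genotypes. Between genotypes with LPS 1 gene passed: Naip6, at 7.93 and 8.85 CPM in WT and 31.3 and 31.5 CPM in KO, a log2 difference of 1.90 ± 0.30 (adjusted p = 0.0445, edgeR). The Naip genes are close copies of each other, so their counts are uncertain. The Naip6 call was lost without any 1 library except WT LPS replicate 1. It was also lost with only the groups compared in the fit, where 0 of all genes passed. With the replicate number as a block, where 8 of all genes passed, it was lost as well. The count of the list in WT was 2 with only the groups compared, where 229 of all genes passed. With DESeq2 it was 18, where 1995 of all genes passed. In KO it was 22 with DESeq2, where 2846 of all genes passed. In both genotypes the count fell or rose with the library left out.

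Several members are known targets of p53 (Pmaip1, Bbc3, Bax, Fas, Tnfrsf10b and Apaf1) or of NF-kB (Cflar, Bcl2l1 and the Bcl2a1 genes), so lists of both kinds of target were counted. Both lists were chosen with earlier results of these data known. Tnfaip3, among the NF-kB targets, was also counted among the other cell death genes. Of 28 p53 targets, 0 passed with LPS in WT in edgeR, where 6.49% of all genes passed. There 4 of the list had an unadjusted p under 0.05 (edgeR), where 3324 of all 12442 genes did. DESeq2 called 3 of the list there and 1995 of all genes. In KO 4 passed in edgeR, all lower: Pmaip1, Btg2, Sesn1 and Trp53 itself. That is 14.3% of the list in KO, near the 11.8% of all genes that passed. The list as a whole was not lower in KO: 16 of 28 log2 fold changes were above 0 (median 0.13) and 12 below, where 48.8% of all genes were above 0. The KO count was 0 without either steady-state library of either genotype or KO LPS replicate 2, 1 without KO LPS replicate 1 and 8 without either WT LPS library. Of 15 NF-kB targets, 2 passed in WT (Nfkbiz and Tnfaip3, higher) and 2 in KO (Nfkbiz higher and Relb lower); each is 13.3% of the list, where 6.49% and 11.8% of all genes passed. In the fits without 1 library these counts ran from 0 to 6 and from 0 to 5, the highest without WT LPS replicate 2 in WT and without either WT LPS library in KO. Between genotypes with LPS 0 NF-kB targets passed in edgeR, where 0.772% of all genes did. There 11 had an unadjusted p under 0.05, where 16.9% of all genes did. DESeq2 called 7 of the list and 1062 of all genes. Some of the list passed in edgeR when either WT LPS library was left out. With LPS 14 of 15 log2 differences were below 0 (median -1.21), where the median of all genes was -0.01. At steady state all 15 were below 0 (median -0.39, with a median of -0.01 over all genes) and 0 passed in edgeR, with 0 at an unadjusted p under 0.05 and 0 called by DESeq2.

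Promoter entries of RefSeq (GRCm38.p6) were searched for letters that these pathways' factors bind, and 28 of 32 members had an entry. The 250 bases before the start used by the entry were read, and that start can lie inside the gene's full span. The window of Mlkl (111338206-111338455) lay within the span given above, and that of Cflar (58711241-58711490) crossed the start of its span. The matches in Bcl2l1, Mcl1 and Bbc3 below also lay inside the spans of these genes. The NF-kB motif GGGNNTTTCC, searched on both strands, occurred in 3 members, and in 1.65% of all genes. The matches are shown in windows of 30 bases because they belong to members of opposite roles, 2 guards and a BH3-only gene. Capitals mark the motif, which reads on the strand opposite to the gene in all 3.
Bcl2l1 (chr2:152830916-152830945, minus strand): tacgcctctcGGAAAAACCCgggagtggtc
Mcl1 (chr3:95658683-95658712, plus strand): ccagccctccGGAAACGCCCgcccctttcc
Bbc3 (chr7:16309437-16309466, plus strand): ctggctgccgGGAAACCCCCcgcgccgagg
Of these 3 genes none passed in any comparison. The interferon-response motif GAAANNGAAA occurred in 0 of 28 members and 3.46% of all genes, and the STAT motif TTCNNNGAA in 2 members (Fas and Ripk1) and 8.13% of all genes. None of the 3 motifs occurred in these windows of Mlkl and Cflar. A match or its lack describes the letters only.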

How the data were processed

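Read counts by gene were deposited by the authors as whole, unnormalized numbers for 23420 features, each with a gene name. The tools listed in the submitters' processing notes are featureCounts, TopHat2 2.0.8, edgeR 3.6.8 and Subread 1.4.3, the build is mm10, and the role of each is not stated. Per the labels' protocols, RNA was isolated with an RNeasy-plus kit and libraries made with a TruSeq v2 kit, which does not mark strand. No source used here gives the read length.

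Groups and replicate numbers came from the sample titles. The analysis used edgeR 4.0.16 under R 4.3.3. The filter on low counts was filterByExpr (minimum count 10, minimum total 15), libraries were scaled with TMM, and the quasi-likelihood F test was fitted to all 8 libraries at once with a coefficient for each group, as a pair of groups by itself leaves few degrees of freedom. The 5 comparisons were the genotypes at steady state and with LPS, the LPS response of either genotype, and the interaction. Tests were two-sided, and p-values were adjusted over all 12442 genes. CPM use TMM-scaled library sizes. An SE is the size of the log2 fold change divided by the square root of F. The procedure was run on simulated data in which all groups shared the same spread for a gene. The real LPS libraries varied more than the steady-state ones, so that run cannot show how the test behaves here.

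The members were picked by name, not by a cut on their values, but with earlier results of these data known, as were the lists, pairs and tests. The rule for values in every library took members called in any comparison and the member of highest mean CPM in each role. Bcl2, Bcl2l1, Bbc3, Bmf, Fas and Casp6 were added after their values were seen, as were the p53 and NF-kB targets named. Other cell death genes were named where called, at most 10 per comparison by adjusted p, and Birc5 was named beside them. Exon lengths and shared 50-base stretches came from GENCODE M21, and promoters from RefSeq. Alternatives were RLE factors, DESeq2 1.42.0, no filter or a stricter one (CPM of 1 or more in 2 libraries), a block for the replicate number, a fit of only the groups compared, the Bcl2a1 genes summed, and leaving out each library.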

Additional observations from a re-analysis of the deposited data

Results flagged for a closer look

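The libraries of Bcl2 separated in opposite directions with LPS in the genotypes. Both WT libraries with LPS (14.1 and 13.3 CPM) were above both at steady state (11.7 and 13.2 CPM), by little. Both KO libraries with LPS (17.2 and 16.7 CPM) were below both at steady state (20.1 and 27.7 CPM). The log2 fold changes were 0.14 ± 0.27 in WT and -0.50 ± 0.27 in KO, and neither passed. Such separation of LPS from steady state was common, at 56.6% of all genes in WT and 72.6% in KO. The difference between the responses, KO minus WT, was -0.64 on the log2 scale and did not pass (adjusted p = 0.906, edgeR).

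Fas was lower in KO than in WT at steady state in every library and higher in every library with LPS. The difference of the genotype differences was 1.17 on the log2 scale and did not pass (adjusted p = 0.649, edgeR). Groups of 2 libraries often separate within 1 comparison. KO and WT did not overlap, in either direction, for 45.5% of all genes at steady state and 36.1% with LPS. The share of genes that separate in opposite directions at the 2 treatments was not counted.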

How the results depend on the processing

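The number of members called with LPS in WT, 2, was 1 with RLE factors, 0 with only the groups compared and 1 with the replicate number as a block (Cflar, adjusted p = 0.0744, edgeR, was not called), and ran from 0 to 6 when a library was left out. In KO it went from 2 to 5 without a filter, 6 with DESeq2 and 4 with only the groups compared, and stayed at 2 with the replicate block. Over all genes the count there went from 1463 to 2223, 2846, 2316 and 776 in the same order. The number of members called in KO fell or rose with the library left out. Between genotypes with LPS it went from 0 to 1 with DESeq2; leaving out a library gave 0 throughout. At steady state and for the interaction it was 0 under each alternative run. The shared fit lets the wider spread of the LPS libraries enter the steady-state comparison. With only the steady-state groups in the fit, 6 members had an unadjusted p under 0.05 (edgeR), against 3 in the main fit. There 1 of all genes passed. Same-numbered LPS libraries deviated in opposite directions (correlation -0.629 over genes), and the number is not known to pair samples; crossing the KO LPS numbers, chosen after seeing the data, gave 0 members and 273 genes between genotypes with LPS, against 8 genes with the block as labelled and 96 without. Leaving out a library leaves 1 in its group, which is assumed to vary like the others, and fewer degrees of freedom.

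The log2 difference changed sign in at least 1 fit without a library for 52 of 155 pairs of a member and a comparison. Wide ranges that crossed 0 included those of Bmf (-2.69 to 1.13), Fadd (-0.78 to 1.13) and Bcl2l1 (-0.66 to 0.77) between genotypes with LPS and Bcl2l11 in WT (-0.87 to 1.05). In the interaction Bmf (-2.90 to 0.92), Bax (-0.0094 to 1.17) and Bcl2a1d (-1.23 to 0.18) were among them. Others were Cflar between genotypes with LPS (-0.36 to 0.026) and in the interaction (-0.50 to 0.13), Mlkl in the interaction (-0.29 to 0.21), Casp6 in WT (-0.52 to 0.085), Bcl2l1 in KO (-0.023 to 1.41) and Fas in KO (-0.047 to 0.55). The cause was not tested. Summing the Bcl2a1 genes raised the gap between survival and death members to 1.66 (WT) and 1.76 (KO) at steady state and 2.24 and 2.34 with LPS, through fewer low survival values. Depth limits Bok (1 to 7 reads per library) and Cycs (5 to 18).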
